A study of Mus musculus with 9 samples.

Results

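H1f0, the gene of linker histone H1.0, and 7 genes of histones made outside S phase or for special tasks (H1fx, H2afx, H2afz, H2afv, H2afy, H3f3a and H3f3b) were followed in mouse lung macrophages after ozone. These 8 genes were picked by symbol from 54281 genes in the count table, and 7 of them were among the 15713 genes with enough counts to test. H1fx had too few counts and is given by its counts alone. H1f0 entered because it was the single gene called at 24 h against air in an earlier look at these libraries, so its values in that comparison are a description and carry no test.

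The cells came from female wild-type mice aged 12 weeks, kept in a whole-body chamber with ozone or air. A first group of 3 mice breathed air only. A second group of 3 mice inhaled 0.8 ppm ozone for 3 h and was killed 24 h later, and a last group of 3 mice had the same exposure and was killed 72 h later. When the air mice were killed is not stated in the labels. Macrophages were washed out of the lung with massage, red cells were lysed, and total RNA was sequenced. The labels give no sorting step, and fewer cells of a type and less RNA per cell cannot be told apart. Ozone, an oxidizing gas of polluted air, damages epithelium of the airways and alveoli.

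Most histone genes are expressed in S phase, when new DNA is packaged, and their mRNAs end in a stem-loop in place of a poly(A) tail. Replacement histones are made throughout the cell cycle from polyadenylated mRNAs and are exchanged into chromatin without replication. Linker histones of the H1 family bind the nucleosome where DNA enters and leaves it and favour compact chromatin. H1.0 is the linker histone that accumulates in differentiated, slowly dividing or resting cells. Alveolar macrophages, the resident phagocytes of the air spaces, are differentiated cells that keep the capacity to divide.

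Libraries held 47095543 to 60248305 estimated counts. Levels are given as CPM (counts scaled to library size with TMM factors), changes as log2 fold changes ± SE from edgeR's quasi-likelihood fit, and a called gene had a Benjamini-Hochberg adjusted p under 0.05 over all 15713 genes. Markers of alveolar macrophages were abundant in all 9 libraries, with a summed level over 15 genes of 34612 to 37309 CPM in air, 23506 to 32778 CPM at 24 h and 27256 to 32208 CPM at 72 h, so that every ozone library lay below every air library. Most of this sum was Chil3, which averaged 23708, 18449 and 19797 CPM in air, at 24 h and at 72 h. The sum does not show that all 15 markers fell, and Car4 averaged 432, 711 and 607 CPM. The sum of 9 lung epithelium markers was 36.0 to 43.2 CPM in air, 43.4 to 51.3 CPM at 24 h and 57.1 to 77.9 CPM at 72 h. Both sums moved with the groups, and their part in the members' changes was not tested. Libraries 24 h replicate 2 and 72 h replicate 1 stood apart, with 701 to 1302 CPM of 6 B cell markers against 1.63 to 8.51 CPM in the other 7, and 570 to 749 CPM of 7 serous cavity macrophage markers against 4.13 to 7.19 CPM. T cell markers summed to 40.1 to 365 CPM in those 2 libraries and to 1.52 to 7.60 CPM in the other 7, and 7 markers of monocytes and interstitial macrophages to 288 to 294 CPM against 26.8 to 53.9 CPM. The sum of 6 erythroid markers was 2906 and 2505 CPM in them, 855 CPM in 24 h replicate 1, and 12.2 to 143 CPM in the other 6 libraries. Xist, the RNA of the inactive X chromosome, was at 2.42 CPM in air replicate 2 and at 887 to 1482 CPM in the other 8 libraries, although all mice are labelled female. The Y-linked genes Ddx3y, Eif2s3y and Uty were at 0 CPM in all air libraries, and Kdm5d was at 0.118 to 0.135 CPM there. The cause of the low Xist was not tested.

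On the GRCm38 build, in GENCODE M21, the 8 protein-coding genes lay on 7 chromosomes. H1f0 (ENSMUSG00000096210.2) was at chr15:79028450-79030504 on the plus strand as a single transcript of 2055 bases, and H1fx (ENSMUSG00000044927.6) at chr6:87980421-87981637 on the minus strand. H2afx (ENSMUSG00000049932.3) was at chr9:44334694-44336077, plus strand, H2afz (ENSMUSG00000037894.13) at chr3:137864487-137866922, plus strand, and H2afv (ENSMUSG00000041126.16) at chr11:6427229-6444443, minus strand. H2afy (ENSMUSG00000015937.15) was at chr13:56073619-56136361, H3f3a (ENSMUSG00000060743.12) at chr1:180800832-180813943 and H3f3b (ENSMUSG00000016559.14) at chr11:116021912-116027962, all on the minus strand.

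The DNA just before the start is shown for H1f0, which was higher at 72 h than at 24 h, and for H2afz and H2afv, which encode the variant H2A.Z and were both lower at 72 h than at 24 h. The RefSeq promoter windows used here cover 7 of the 8 genes, all but H2afx. The 250 bases before the start do not run into an exon of the gene for these 3. The windows are chr15:79027962-79028211 (H1f0, plus strand), chr3:137864237-137864486 (H2afz, plus strand) and chr11:6444444-6444693 (H2afv, minus strand) on GRCm38.p6, read 5′ to 3′ along the gene. Capitals mark a CCAAT box, on either strand (CCAAT or ATTGG).
H1f0: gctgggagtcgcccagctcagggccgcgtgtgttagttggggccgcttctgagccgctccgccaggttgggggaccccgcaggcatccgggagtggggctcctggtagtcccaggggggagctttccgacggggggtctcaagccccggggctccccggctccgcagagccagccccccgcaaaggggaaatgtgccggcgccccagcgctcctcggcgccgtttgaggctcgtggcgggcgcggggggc
H2afz: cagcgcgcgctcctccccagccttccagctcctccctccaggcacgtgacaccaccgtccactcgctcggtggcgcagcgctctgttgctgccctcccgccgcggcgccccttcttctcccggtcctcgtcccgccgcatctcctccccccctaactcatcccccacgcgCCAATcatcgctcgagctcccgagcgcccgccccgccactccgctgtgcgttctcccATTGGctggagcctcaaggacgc
H2afv: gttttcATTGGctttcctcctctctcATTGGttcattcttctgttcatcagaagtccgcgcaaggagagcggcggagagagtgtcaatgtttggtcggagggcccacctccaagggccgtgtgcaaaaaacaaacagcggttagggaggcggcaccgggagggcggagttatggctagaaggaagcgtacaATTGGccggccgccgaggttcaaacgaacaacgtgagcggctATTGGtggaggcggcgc
CCAAT occurred 0 times before H1f0, 2 times before H2afz (bases -80 to -76 and -23 to -19) and 4 times before H2afv, and 33.9% of the 32841 mouse windows of this length held at least 1. Windows with 3 or more made up 2.79% of all. Of the windows not printed, H3f3b held 4 CCAAT boxes and a TATAAA at bases -27 to -22. The H3f3a window held 1 CCAAT box and, on either strand, an AAACACA at bases -181 to -175. The windows of H1fx and of H2afy, which was also lower at 72 h than at 24 h, held 0 CCAAT boxes. The H1f0 window had no match on either strand to any of the motifs searched. Besides CCAAT these were the GC box GGGCGG (in 32.7% of all windows), TATAAA (12.4%), the H1 box AAACACA of linker histone promoters (6.25%), the E2F sites TTTGGCGC (0.417%) and TTTCCCGC (0.895%), the cell cycle element TTTGAA (15.99%) and the cyclic AMP element TGACGTCA (1.55%). Of the 7 member windows 5 held a GC box, among them those of H2afz and H2afv. That of H2afv also held a TTTGAA, on either strand, at bases -41 to -36. No match before H1f0 says only that these letters are not in its window, and the RefSeq start of H1f0 lies 238 bases upstream of the GENCODE start. G and C made up 74.4% of the H1f0 window, 71.2% of that of H2afz and 57.2% of that of H2afv, with a median of 52.4% over all windows.

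H1f0 was lower at both ozone times than in air, and was the member whose level at 72 h lay between those of the other groups. It had 34.3, 34.1 and 35.9 CPM in the 3 air libraries, 23.3, 24.2 and 23.6 CPM in the 3 libraries at 24 h, and 27.2, 27.3 and 27.1 CPM in the 3 libraries at 72 h. No library of a group reached into the range of another group. The log2 fold change at 24 h against air was -0.55 ± 0.05, a level 31.8% below that in air; this is the contrast on which the gene was chosen.

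At 72 h H1f0 fell by 0.36 ± 0.05 on the log2 scale against air (edgeR, adjusted p = 0.0159), and at 72 h it was 0.20 ± 0.05 higher than at 24 h (edgeR, adjusted p = 0.0253). These tests share the air and the 24 h libraries with the contrast on which H1f0 was chosen, so their p-values are not independent of that choice. Without the 2 libraries carrying lymphocyte markers, a setting chosen after the data were seen, the changes were -0.33 (adjusted p = 0.0187) and 0.23 (adjusted p = 0.0466) in edgeR. Without these and air replicate 2, which has little Xist, they were -0.37 (edgeR, adjusted p = 0.0433) and 0.21 (adjusted p = 0.0900). With single libraries left out, the call at 72 h against air was lost without air replicate 2 (edgeR, adjusted p = 0.0682), air replicate 3 (0.0659), 72 h replicate 1 (0.0566), 72 h replicate 2 (0.0906) and 72 h replicate 3 (0.063), with the log2 fold change between -0.37 and -0.33 throughout. The call at 72 h against 24 h was lost without 24 h replicate 1 (edgeR, adjusted p = 0.055), 24 h replicate 3 (0.0546), 72 h replicate 1 (0.0589), 72 h replicate 2 (0.0963) and 72 h replicate 3 (0.0678), with the log2 fold change between 0.19 and 0.23.

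**Figure D1:**
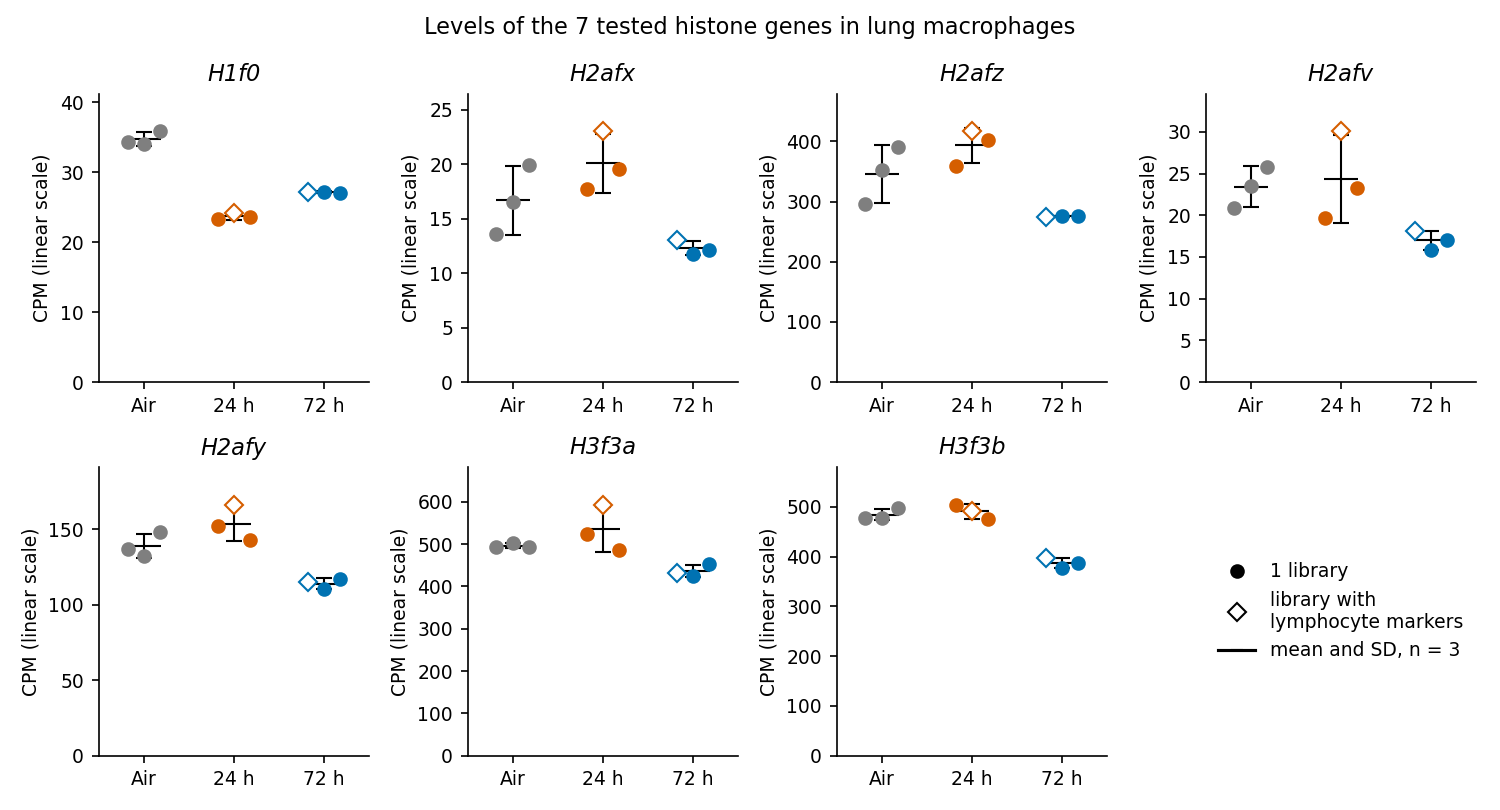
Level of each of the 7 tested histone genes in CPM (linear axis from 0) in air, at 24 h and at 72 h after ozone. Each point is 1 library, diamonds are the 2 libraries with lymphocyte markers, and lines show the mean and SD of 3 libraries; H1f0 sits at 34.1 to 35.9 CPM in air, 23.3 to 24.2 CPM at 24 h and 27.1 to 27.3 CPM at 72 h, while the other 6 genes have their lowest libraries at 72 h.

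The replicates of H1f0 lay close together. The coefficient of variation was 2.81% in air, 2.03% at 24 h and 0.388% at 72 h, where counting alone would give about 2.26%, 2.95% and 2.68% for its 1121 to 2157 counts per library. Choosing the gene with the smallest p at 24 h against air favours a small spread in these libraries, so this spread is a description of the chosen gene. A coefficient from 3 libraries is imprecise. H2afz was also below its counting spread at 72 h (0.288% against 0.842%), while H2afx in air (18.9% against 3.32%) and H2afv at 24 h (21.7% against 2.95%) were far above it.

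**Figure D2:**
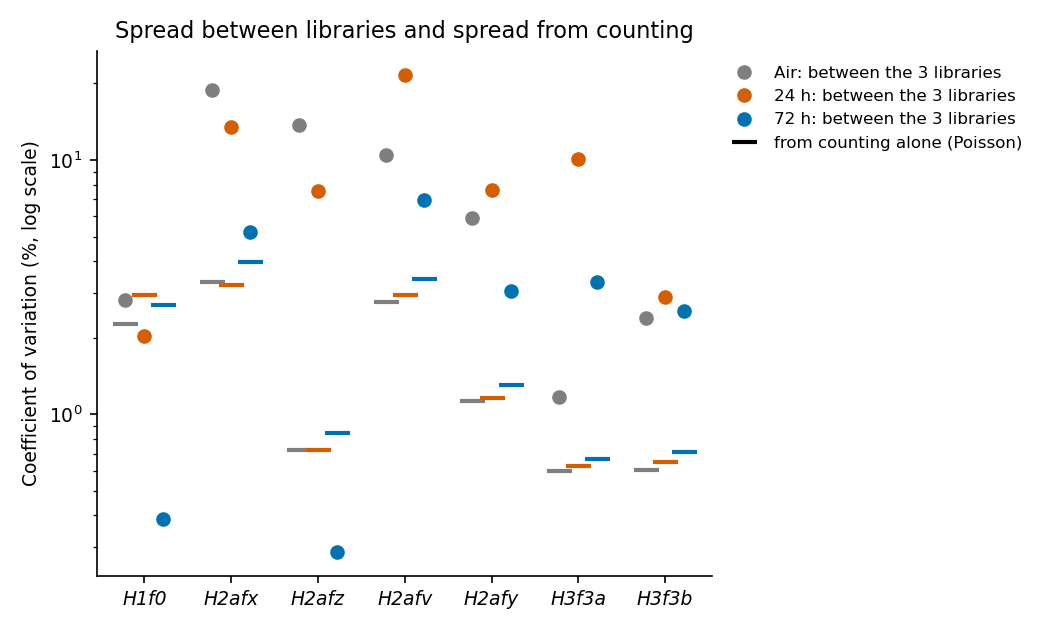
Coefficient of variation between the 3 libraries of a group (points, log axis, percent) for the 7 tested genes in air, at 24 h and at 72 h, with the spread expected from counting alone as dashes. H1f0 lies near or below its dashes in all groups, and every point of the other 6 genes except H2afz at 72 h lies above its dash.

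The genes with the profile most like that of H1f0 over the 9 libraries were named by the root mean square difference of centred log2 CPM, among 9531 genes of at least 5 CPM. They were Slpi, the secreted leukocyte protease inhibitor, at 0.0865, Zfp41, a zinc finger gene, at 0.0986, Cox6b2, a testis form of a cytochrome c oxidase subunit, at 0.1003, Cela1, an elastase, at 0.101, and Tmem198b at 0.106. The median of all candidates was 0.262. Slpi averaged 223 ± 21.2 CPM in air, 149 ± 14.0 at 24 h and 175 ± 8.04 at 72 h (SD, n = 3 each). In the 7 libraries without lymphocyte markers these genes ranked 4, 16, 13, 7 and 22, and the nearest of the other tested members was H3f3b at 0.264 over the 9 libraries. Hist1h1c, a linker histone gene outside the members, was at 0.185.

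In the counts of linker histone genes, H1f0 was accompanied by Hist1h1c, a replication-dependent H1 gene, and by little else. H1fx, the gene of linker histone H1X, had estimated counts of 0, 0 and 1.66 in the air libraries, 4, 3 and 0 in those at 24 h and 1, 2 and 0 in those at 72 h, around or under the floor of 3 counts (0.0499 to 0.0632 CPM), so no comparison was possible. Per kilobase of exon, H1f0 had 16.9 ± 0.476 CPM in air, 11.5 ± 0.234 at 24 h and 13.2 ± 0.0513 at 72 h, and the 5 replication-dependent somatic H1 genes together had 23.2 ± 2.36, 18.3 ± 1.73 and 22.6 ± 2.79 CPM per kilobase (SD, n = 3 each). H1f0 thus made up 42.2 ± 2.67% of these 6 genes in air, 38.8 ± 2.56% at 24 h and 37.0 ± 2.81% at 72 h, ranges that overlapped between the groups. Of the 5 genes 3 were tested, and edgeR called 0 of them in any contrast. Their unadjusted p was under 0.05 for 1 at 24 h against air, 0 at 72 h against air and 1 at 72 h against 24 h, and DESeq2 called 1, at 72 h against 24 h. Hist1h1c averaged 35.8 ± 3.67 CPM in air, 28.0 ± 2.62 at 24 h and 34.9 ± 4.30 at 72 h, and Hist1h1d averaged under 1 CPM in every group. Hist1h1a, Hist1h1b and Hist1h1e also averaged under 1 CPM in every group. Mki67, a gene of dividing cells, averaged 206 ± 20.2 CPM in air, 281 ± 23.2 at 24 h and 242 ± 18.0 at 72 h. The kit takes total RNA, but how completely mRNAs without a poly(A) tail were captured was not tested. The share of H1f0 is therefore one of the counts and may not be that of all linker histone mRNAs in the cells.

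Per kilobase of all annotated exons of a gene the 7 tested genes spanned more than an order of magnitude. In air the order was H2afz (195 ± 26.8 CPM per kilobase), H3f3b (163 ± 3.90), H3f3a (142 ± 1.65), H2afy (20.4 ± 1.21), H1f0 (16.9 ± 0.476), H2afv (14.3 ± 1.51) and H2afx (12.1 ± 2.28). The libraries of H2afz and H3f3b overlapped, as did those of H2afv and H2afx, and the other neighbours were apart. The scale depends on the length chosen: per kilobase of the longest coding transcript the order in air was the same, but H2afz (324 CPM per kilobase) lay apart from H3f3b (193), and H2afy stood at 67.9, well above H1f0 at an unchanged 16.9. At 24 h H1f0 was last, at 11.5 ± 0.234 below H2afx at 14.5 ± 1.96 and H2afv at 14.9 ± 3.23, with no library in their ranges. At 72 h it was again the fifth, at 13.2 ± 0.0513 above H2afv at 10.4 ± 0.726 and H2afx at 8.90 ± 0.466 CPM per kilobase, again with no overlap. The libraries of H3f3b and H3f3a overlapped at both ozone times.

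For the other 6 tested genes the log2 fold changes at 24 h against air were all above 0, and H2afv was at -0.12 without the 2 libraries carrying lymphocyte markers. They ranged from 0.02 ± 0.06 for H3f3b to 0.27 ± 0.14 for H2afx, and the libraries of the groups overlapped for all 6; over all genes 19.4% did not overlap, 9.06% with the 24 h libraries lower. Of the 7 genes, 1 was called at 24 h against air, which is H1f0 itself; 0.00636% of all genes were called, and since this contrast chose the gene nothing is read from it. Their median was 0.11, and 0.01 over all genes tested.

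At 72 h the level of every tested member was below that in air. The libraries at 72 h lay wholly below those in air for all 7, which 22.1% of all genes did (39.5% in either direction). The test called 2 of the 7, H1f0 and H3f3b, both lower. Over all genes 5.47% were called, 1.71% as higher and 3.77% as lower. H1f0 was chosen for a low level against these same air libraries. Its part in the counts of this paragraph is therefore not independent of that choice. The median log2 fold change of the 7 was -0.33, and -0.01 over all genes tested. In DESeq2 5 of the 7 were called, where 12.6% of the genes with an adjusted p were, and without the 2 libraries carrying lymphocyte markers 4 of the 7 were called in edgeR (H1f0, H3f3b, H2afv and H2afy), where 7.17% of all genes were. With air replicate 2 left out as well, H1f0 and H3f3b were called, where 2.74% of all genes were.

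Between the ozone times the members parted. At 72 h against 24 h, 1 member was called as higher (H1f0) and 6 as lower, and libraries did not overlap for any of the 7. Of all genes 18.2% were called, 5.39% as higher and 12.8% as lower, and 37.6% did not overlap, 22.7% with the 72 h libraries lower and 15.0% with them higher. DESeq2 called the same 7, where 25.8% of the genes with an adjusted p were called. The median log2 fold change of the 7 was -0.43, and -0.03 over all genes. This comparison shares its 24 h libraries with 24 h against air, where H1f0 was chosen for a low level. That choice favours a higher H1f0 at 72 h, so its direction and its part in these counts are not independent of the choice. Without the 2 libraries with lymphocyte markers 5 of the 7 were called, H1f0 as higher and H2afx, H2afz, H2afy and H3f3b as lower, where 15.3% of all genes were. With air replicate 2 left out as well, 2 were called, H2afy and H3f3b, where 11.7% of all genes were; H2afx (edgeR, adjusted p = 0.0536) and H2afz (0.0583) were then not called.

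**Figure D3:**
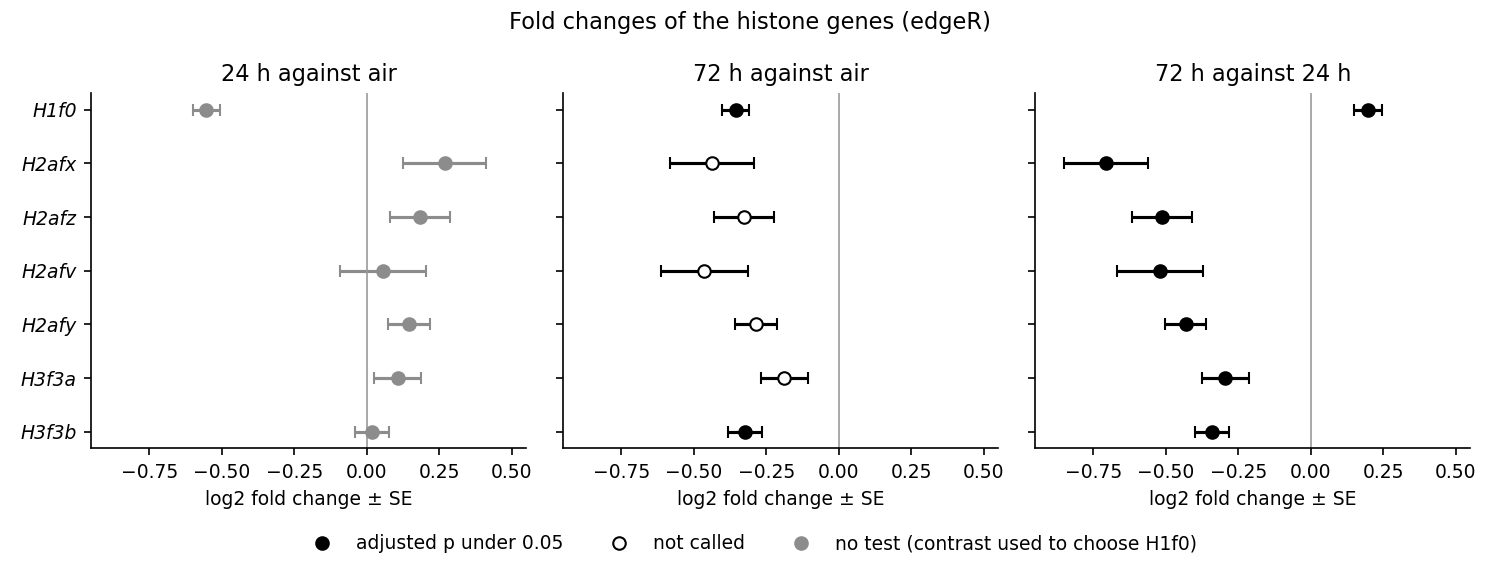
Log2 fold change ± SE (edgeR, 9 libraries) of the 7 tested histone genes in 24 h against air (grey, no test), 72 h against air and 72 h against 24 h; filled points have an adjusted p under 0.05 and open points do not. H1f0 is the sole gene left of 0 in the first panel and the sole gene right of 0 in the last, at 0.20 ± 0.05.

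H2afx encodes H2A.X, the H2A form that is phosphorylated around DNA breaks and whose mRNA is made both with a poly(A) tail and in the S phase form. Its libraries held 13.6, 16.5 and 19.9 CPM in air mice, 17.7, 23.0 and 19.6 CPM at 24 h, and 13.0, 11.8 and 12.1 CPM at 72 h. The highest library was 24 h replicate 2, which carries lymphocyte markers, and all 72 h libraries were below every other. It fell by 0.71 ± 0.15 on the log2 scale at 72 h against 24 h (edgeR, adjusted p = 0.0151), the largest drop of the 7, and by 0.62 without the 2 libraries with lymphocyte markers (adjusted p = 0.0375). Against air the value at 72 h was -0.44 ± 0.14 (edgeR, adjusted p = 0.107). Of its exonic 31-mers 8.86% also occur in 25 other genes, 20 of them histone genes with Hist names, so reads could be split with these. The summed level of these 25 genes was 29.7 to 39.8 CPM in air, 33.2 to 39.6 CPM at 24 h and 30.2 to 32.3 CPM at 72 h, or 150 to 266% of the counts of H2afx, and most of it came from H2afj, Gm20634 and Hist3h2a. Leaving out 72 h replicate 2 (adjusted p = 0.068) or 72 h replicate 3 (0.0517) ended the edgeR call at 72 h against 24 h.

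Of 13 genes listed around the phosphorylation of H2A.X, edgeR called 1 as higher and 2 as lower at 72 h against 24 h. Being on this list does not mean that a gene, such as Brwd1, modifies or binds H2A.X. Of all genes 5.39% were called as higher and 12.8% as lower. The median log2 fold change of the 13 was 0.00 where all genes had -0.03. Brwd1, a bromodomain protein, rose by 0.30 ± 0.09 (edgeR, adjusted p = 0.0455), a call lost without the 2 libraries with lymphocyte markers (0.30, adjusted p = 0.0816), while Brca1, a repair protein, fell by 0.47 ± 0.11 (adjusted p = 0.0226) and Mre11a, a nuclease of the break-sensing complex, fell by 0.24 ± 0.05 (adjusted p = 0.0178). The kinase gene Atm, which was not called, averaged 45.8 ± 4.53 CPM in air, 52.0 ± 7.02 at 24 h and 58.5 ± 3.13 at 72 h. Against air at 72 h edgeR called 0 of the 13, with an unadjusted p under 0.05 for 3. DESeq2 called 3, where it called 12.6% of the genes with an adjusted p.

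H2afz encodes H2A.Z.1, the main form of a variant placed at promoters and enhancers. It had 295.6, 352 and 390.1 CPM in air mice, 359.9, 417 and 403 CPM at 24 h, and 275, 276 and 276 CPM at 72 h. The air libraries spread widely, and the 72 h libraries were nearly equal and below all others. It fell by 0.51 ± 0.10 at 72 h against 24 h on the log2 scale (edgeR, adjusted p = 0.0144), and by 0.44 without the 2 libraries with lymphocyte markers (adjusted p = 0.0423). The value at 72 h against air was -0.33 ± 0.10 (edgeR, adjusted p = 0.0949). The edgeR call at 72 h against 24 h was lost without 72 h replicate 2 (adjusted p = 0.0619).

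H2afv encodes H2A.Z.2, which differs from H2A.Z.1 in a few residues. It had 20.9, 23.6 and 25.8 CPM in air mice, 19.7, 30.1 and 23.3 CPM at 24 h, and 18.2, 15.8 and 17.0 CPM at 72 h. Again 24 h replicate 2 was the highest and the 72 h libraries were the lowest. It fell by 0.52 ± 0.15 at 72 h against 24 h on the log2 scale (edgeR, adjusted p = 0.0441), but by 0.37 and without a call when the 2 libraries with lymphocyte markers were left out (adjusted p = 0.0651). Set against air, the 72 h libraries gave a log2 fold change of -0.46 ± 0.15 (edgeR, adjusted p = 0.101) in all libraries and -0.49 (adjusted p = 0.0349) without those 2; leaving out 24 h replicate 2 alone also gave a call (adjusted p = 0.0284). The call at 72 h against 24 h held in edgeR in only 1 of 9 fits with a library left out, that without 24 h replicate 1 (adjusted p = 0.0346), and in the other 8 the adjusted p was 0.0528 to 0.148.

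H2afz and H2afv differ at 80 of 384 coding bases (79.2% identical) and share no 31-mer. H2afz gave 93.6 ± 0.21% of the counts of the pair in air, 94.2 ± 0.82% at 24 h and 94.2 ± 0.39% at 72 h (SD, n = 3 each). The share was 0.56 percentage points higher at 72 h than in air (two-sided exact permutation test, p = 0.1, the smallest that 3 against 3 libraries allow). After Benjamini-Hochberg adjustment over the 4 exact tests of pair shares this p was 0.2. Between 72 h and 24 h it differed by -0.0057 points (exact permutation test, p = 1), and the sign changed when 72 h replicate 1, 24 h replicate 1 or 24 h replicate 3 was left out (0.192, 0.299 and 0.156 points). Share and spread do not depend on how libraries were scaled.

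Of 17 genes that deposit or remove H2A.Z, edgeR called 1 as higher and 7 as lower at 72 h against 24 h. Over all genes the calls were 5.39% as higher and 12.8% as lower. The median log2 fold change of the 17 was -0.22, with 5 above 0 and 12 below. Nap1l1, a chaperone of H2A and H2B, fell by 0.53 ± 0.06 (edgeR, adjusted p = 0.00406), and Ruvbl1 and Ruvbl2, the ATPase pair of the remodelling complexes, fell by 0.68 ± 0.09 and 0.71 ± 0.10 (adjusted p = 0.00579 and 0.00595). Actl6a, an actin-like subunit, fell by 0.39 ± 0.05 (adjusted p = 0.00599). The gene called as higher was Trrap, a scaffold of the TIP60 complex, with 0.29 ± 0.07 (adjusted p = 0.026). Against air at 72 h 1 was called as higher (Trrap) and 2 as lower (Yeats4 and Nap1l1), where 1.71% and 3.77% of all genes were. Nap1l1 had -0.30 ± 0.06 (edgeR, adjusted p = 0.0315), while Srcap, the ATPase that inserts H2A.Z, had a log2 fold change of 0.25 ± 0.08 (adjusted p = 0.092). Without the 2 libraries with lymphocyte markers Yeats4 was not called at 72 h against air (edgeR, adjusted p = 0.115).

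Among 8 genes of FACT and of H2A-H2B chaperones, edgeR called 7 as lower and 0 as higher at 72 h against 24 h. Of all genes 12.8% were called as lower and 5.39% as higher, and the median of the 8 was -0.40. Ssrp1, a FACT subunit, fell by 0.43 ± 0.06 (edgeR, adjusted p = 0.00586), Ncl, nucleolin, by 0.44 ± 0.07 (adjusted p = 0.00818), and Npm3, a nucleoplasmin, by 0.66 ± 0.12 (adjusted p = 0.00932). Nap1l1 and Nap1l4 are counted here as well as above. Without the 2 libraries with lymphocyte markers 4 of the 8 were called as lower, where 15.3% of all genes were called in either direction. Nap1l1 and Ssrp1 were the 2 also called as lower at 72 h against air, where 3.77% of all genes were.

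H2afy encodes macroH2A1, an H2A with a large added macrodomain, found on the inactive X and on other silent chromatin. It had 137, 132 and 148 CPM in air mice, 152, 166 and 143 CPM at 24 h, and 115, 110.2 and 117 CPM at 72 h. All 72 h libraries lay below all others, and the other groups overlapped. It fell by 0.43 ± 0.07 at 72 h against 24 h on the log2 scale (edgeR, adjusted p = 0.00846), and by 0.36 without the 2 libraries with lymphocyte markers (adjusted p = 0.0195). The change at 72 h against air was -0.28 ± 0.07 (edgeR, adjusted p = 0.0548), and -0.27 with a call without those 2 libraries (adjusted p = 0.0468), as also without 24 h replicate 2 alone (0.0314). Counts per gene do not separate its splice forms. The antisense gene Gm47071, which overlaps 501 of its exon bases, held 1.67 to 3.04% as many counts.

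Of 4 macroH2A partners, Hells, a DNA helicase of heterochromatin, fell by 0.71 ± 0.12 at 72 h against 24 h (edgeR, adjusted p = 0.00923) and the other 3 were not called. Over all genes 12.8% were called as lower. At 72 h against air edgeR and DESeq2 called 0 of the 4, with an unadjusted edgeR p under 0.05 for 0. Parp1, the poly(ADP-ribose) polymerase, averaged 66.5 ± 2.28 CPM in air, 82.8 ± 13.0 at 24 h and 68.3 ± 10.1 at 72 h. The second macroH2A gene, H2afy2, averaged only 1.36 ± 0.198, 1.40 ± 0.069 and 1.51 ± 0.397 CPM.

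H3f3a and H3f3b encode the same protein, H3.3, which marks active genes and also telomeric and repeat chromatin. H3f3a had 494, 503 and 492 CPM in air mice, 524, 593 and 487 CPM at 24 h, and 433, 423 and 452 CPM at 72 h. H3f3b had 478, 478 and 498 CPM in air mice, 504, 492 and 476 CPM at 24 h, and 397, 377 and 387 CPM at 72 h. For both genes the 72 h libraries lay below all others, and the libraries of air and 24 h overlapped.

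H3f3b fell by 0.32 ± 0.06 on the log2 scale at 72 h against air (edgeR, adjusted p = 0.0289) and by 0.34 ± 0.06 at 72 h against 24 h (adjusted p = 0.00923). Both calls held without the 2 libraries with lymphocyte markers (edgeR, adjusted p = 0.0223 and 0.0185). The call at 72 h against air held in 2 of 9 fits with a library left out, those without 24 h replicate 2 (adjusted p = 0.0184) and 24 h replicate 3 (0.0432), and in the other 7 the adjusted p was 0.0507 to 0.124 with log2 fold changes of -0.34 to -0.30. The call at 72 h against 24 h was lost in edgeR only without 72 h replicate 2 (adjusted p = 0.0528).

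H3f3a fell by 0.29 ± 0.08 at 72 h against 24 h (edgeR, adjusted p = 0.0375). Without the 2 libraries with lymphocyte markers the change was -0.19 and was not called (edgeR, adjusted p = 0.0993), and with single libraries left out the call held only without 24 h replicate 3 (adjusted p = 0.0276), against 0.0531 to 0.135 in the other 8 fits. Its highest library, at 593 CPM, was 24 h replicate 2. Its log2 fold change at 72 h against air was -0.19 ± 0.08 (edgeR, adjusted p = 0.189). Of its 31-mers 17.5% occur in other genes, so reads could be split with these. The 92 genes that share 31 or more 31-mers with H3f3a together held 437.5 to 656.7% as many counts, and the 42 pseudogenes among them 0.294 to 0.428%. Those that are not pseudogenes shared at most 38 of its 3584 31-mers each, so their counts do not measure how many reads could be split. Of the 31-mers of H2afz 18.8% and of H3f3b 11.2% occur in other genes, which held at most 0.0525% and 0.0573% as many counts.

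The 2 H3.3 genes differ at 95 of 408 coding bases (76.7% identical) and share no 31-mer. H3f3b gave 49.4 ± 0.80% of the counts of the pair in air, 47.9 ± 2.26% at 24 h and 47.0 ± 0.85% at 72 h (SD, n = 3 each). At 72 h the share was lower in all 3 libraries than in all 3 air libraries, by 2.34 percentage points (two-sided exact permutation test, p = 0.1, the smallest possible; 0.2 after adjustment over 4 tests). Between 72 h and 24 h the difference was -0.89 points (exact permutation test, p = 0.6), and -2.60 points without the 2 libraries with lymphocyte markers (p = 0.333). The lowest share, 45.3% (95% Wilson interval 44.9 to 45.8%), was in 24 h replicate 2, against 49.0% and 49.4% in the other 24 h libraries. Such intervals cover counting error only.

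**Figure D4:**
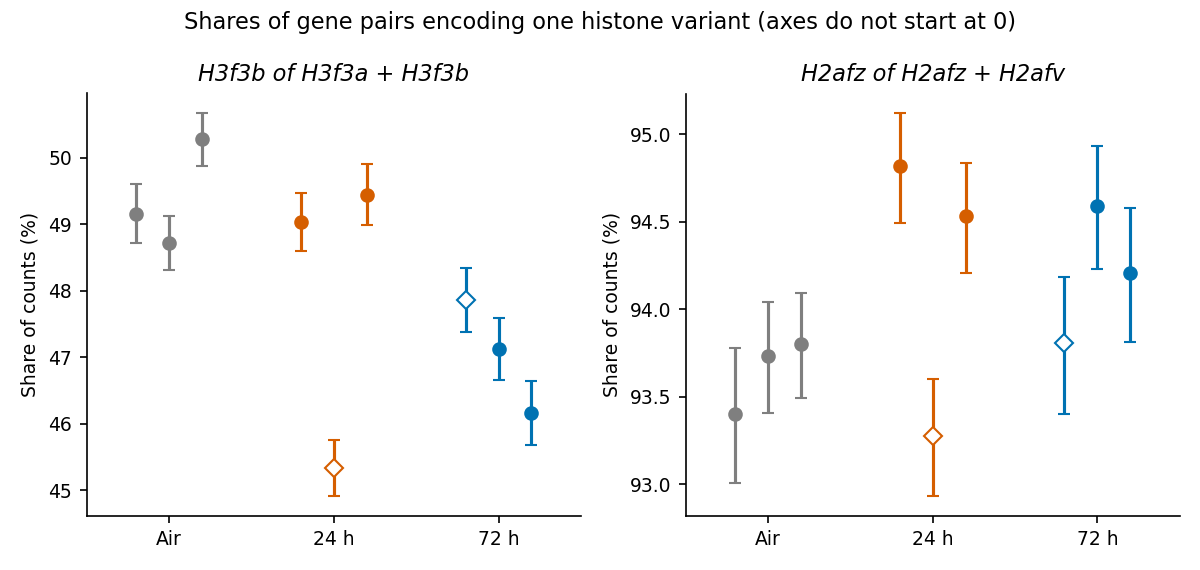
Share of H3f3b in the counts of H3f3a and H3f3b (left) and of H2afz in those of H2afz and H2afv (right), in percent, per library; bars are 95% Wilson intervals, diamonds are the 2 libraries with lymphocyte markers, and the axes do not start at 0. The 3 libraries at 72 h have an H3f3b share of 46.2 to 47.9%, below the 48.7 to 50.3% of the air libraries.

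Of 13 genes for H3.3 deposition and other H3 chaperones, edgeR called 2 as higher and 6 as lower at 72 h against 24 h. Over all genes the calls were 5.39% as higher and 12.8% as lower. The median of the 13 was -0.37 on the log2 scale. The lower genes with the smallest p were these: Chaf1a, a subunit of chromatin assembly factor CAF-1, fell by 0.67 ± 0.07 (edgeR, adjusted p = 0.00374), Mcm2, which also belongs to the replicative helicase, by 0.97 ± 0.13 (adjusted p = 0.00599), Nasp, an H3-H4 chaperone, by 0.59 ± 0.09 (adjusted p = 0.00669) and Asf1b, which hands H3-H4 to other chaperones, by 0.77 ± 0.12 (adjusted p = 0.00724). Among genes of the chaperone complexes specific to H3.3, Atrx rose by 0.35 ± 0.07 (edgeR, adjusted p = 0.0128), Ubn2, a subunit of the HIRA complex, rose by 0.53 ± 0.11 (adjusted p = 0.0141), and Hira (-0.07 ± 0.06, adjusted p = 0.456), Daxx (-0.05 ± 0.06, adjusted p = 0.562) and Cabin1 (0.01 ± 0.06, adjusted p = 0.925) were not called. Against air at 72 h edgeR called 0 of the 13, with an unadjusted p under 0.05 for 2. DESeq2 called 1, where it called 12.6% of the genes with an adjusted p.

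Of 13 genes whose proteins compete with linker histones or carry them, edgeR called 10 as lower and 0 as higher at 72 h against 24 h. Of all genes 12.8% were called as lower and 5.39% as higher, and the median of the 13 was -0.49. Ptma, prothymosin alpha, fell by 0.75 ± 0.09 (edgeR, adjusted p = 0.00541), Hmgn1, a nucleosome-binding protein, by 0.59 ± 0.08 (adjusted p = 0.00614), Set, a histone chaperone, by 0.55 ± 0.08 (adjusted p = 0.00635), and Cbx5, heterochromatin protein HP1 alpha, by 0.49 ± 0.08 (adjusted p = 0.00917). H1f0 rose in the same comparison. Without the 2 libraries with lymphocyte markers 8 of the 13 were called as lower and 1 as higher, with a median of -0.32. In that setting 15.3% of all genes were called in either direction. The higher gene was Hmgn3 (1.94, edgeR adjusted p = 0.0216), which averaged 0.175 CPM in air, 1.08 at 24 h and 1.14 at 72 h over all libraries. Against air 3 were called as lower at 72 h, where 3.77% of all genes were. These were Ptma (-0.48 ± 0.09, edgeR adjusted p = 0.0319), Set (-0.33 ± 0.08, adjusted p = 0.0491) and Hmga1 (-0.30 ± 0.07, adjusted p = 0.0471). The call of Hmga1 was lost without the 2 libraries with lymphocyte markers (edgeR, adjusted p = 0.0631). Hmgn1 was then called as lower (adjusted p = 0.0486) and Hmgn3 as higher (0.0099).

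Of 13 other variant histone genes 5 were tested, and edgeR and DESeq2 called 0 in any contrast. The unadjusted edgeR p was under 0.05 for 1 at 24 h against air and for 0 in the other contrasts. Cenpa, the centromere form of H3, averaged 20.5 ± 3.34 CPM in air, 25.8 ± 3.12 at 24 h and 23.7 ± 2.51 at 72 h, and H2afj 12.4 ± 3.16, 14.1 ± 1.41 and 11.3 ± 1.08 CPM.

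Of 10 genes of replication and division, edgeR called 9 as lower at 72 h against 24 h, where 12.8% of all genes were. The median of the 10 was -0.76. Pcna, the sliding clamp, fell by 0.76 ± 0.09 (edgeR, adjusted p = 0.00406), and the helicase subunits Mcm3, Mcm4 and Mcm6 fell by 0.79 ± 0.10, 0.72 ± 0.09 and 0.90 ± 0.12 (adjusted p = 0.00586, 0.00586 and 0.00595). Their summed level was 1002, 1144 and 1275 CPM in air mice, 1633, 1661 and 1581 CPM at 24 h, and 1089, 957 and 1043 CPM at 72 h. H1f0 was lowest in the group where this sum was highest, and whether the 2 are linked was not tested. At 24 h against air edgeR called 0 of the 81 tested genes of the 9 companion lists, with an unadjusted p under 0.05 for 38, and 0.00636% of all genes. DESeq2 called 24 of the 81 there, where 5.03% of the genes with an adjusted p were called, among them all 10 of replication and division, which were higher at 24 h with a median log2 fold change of 0.55.

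**Figure D5:**
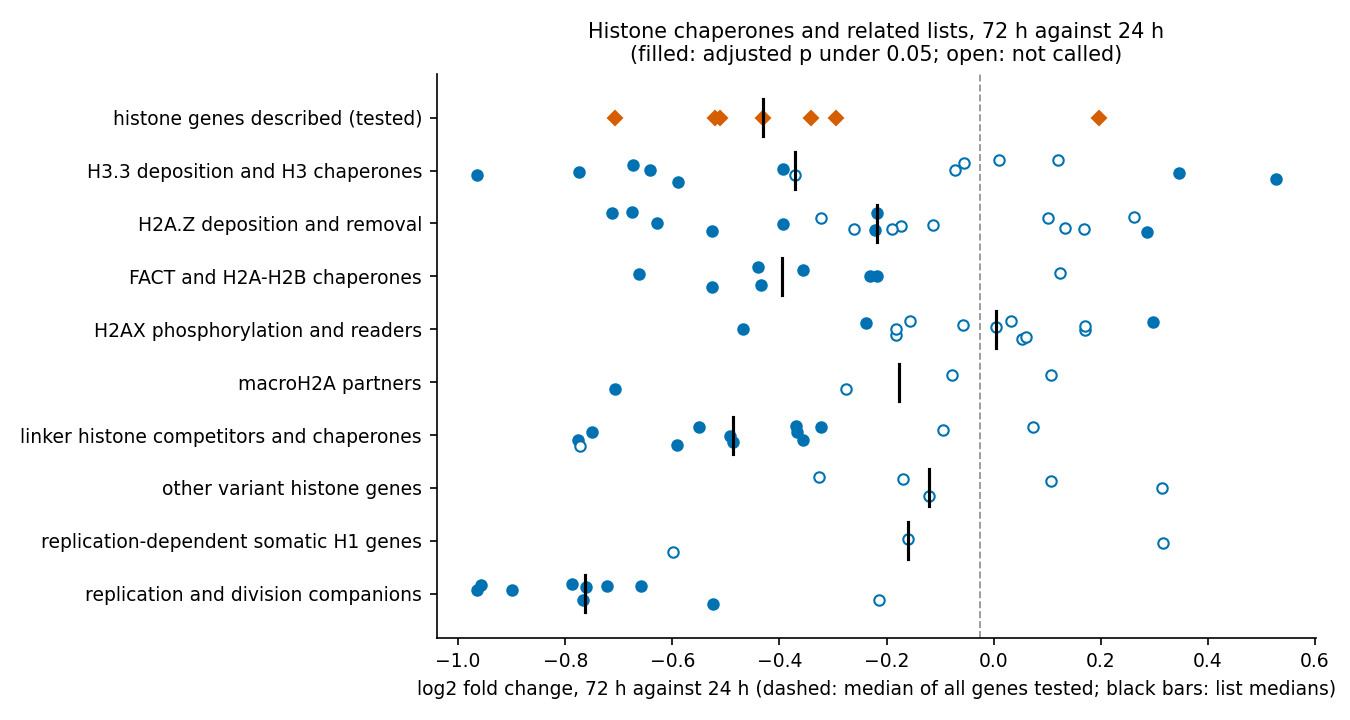
Log2 fold change at 72 h against 24 h of the tested histone genes (orange diamonds) and of the tested genes of 9 companion lists (circles, filled where the adjusted p is under 0.05); black bars are list medians and the dashed line is the median of all genes, -0.03. H1f0 is the diamond right of 0, and 9 of the 10 replication and division genes are called to the left.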

How the data were processed

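Total RNA of lung macrophages from 9 mice was sequenced with a stranded kit, per the labels' protocols. The deposited table holds estimated counts for each gene, not scaled to library size; 80.5% of its values are whole. Trimmomatic 0.39, FastQC, Salmon and DESeq2 were used with GRCm38.p6, per the submitters' processing notes. Other versions, the annotation release and the use of strand in counting are unknown here, and values of overlapping antisense genes are uncertain. Of the deposited columns, 1 names no sample and was not used. GENCODE M21 supplied symbols, lengths and coordinates for 54107 of 54281 identifiers, and RefSeq (GRCm38.p6) the promoter windows.

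Counts were rounded and analysed in R 4.3.3 with edgeR 4.0.16 (filterByExpr, TMM, robust quasi-likelihood fit). All 9 libraries entered 1 fit, with a shared estimate of spread (common biological coefficient of variation 0.312), and Benjamini-Hochberg adjustment ran over 15713 genes. The edgeR p-values set a group difference against the spread between libraries of different mice, moderated over genes. That spread includes the libraries with lymphocyte markers. SE was derived from the F statistic of each contrast. The procedure was tested on simulated data. For well-counted genes the simulated spread was smaller than the common value in these data, and no simulated library carried markers of other cells. That test therefore covers an easier setting. Libraries of a group differed by far more than sampling noise (chi-square of 6.82 to 127.5 per degree of freedom). Shares of gene pairs were compared by a two-sided exact permutation test. Exonic 31-mers were compared over all GENCODE transcripts.

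The members and all gene lists were chosen with earlier results of these data known. Named besides the members are up to 4 called genes with the smallest p from each of 9 companion lists at 72 h, or the 2 most abundant where none was called, and the 5 genes most like H1f0. Trrap, Yeats4, Srcap, Atm, Parp1, H2afy2, Atrx, Ubn2, Hira, Daxx, Cabin1, Hmga1, Hmgn3, Mki67, Hist1h1a, Hist1h1b and Hist1h1e were named after their values were seen. Alternatives were DESeq2 size factors, no filter, DESeq2 1.42.0, the replicate number as a block and each library left out in turn; fits without the 2 libraries with lymphocyte markers, and without a further library, the air replicate with little Xist, were added after the data were seen. RefSeq promoter windows of H1fx, H2afy, H3f3a and H3f3b run into an exon of the gene and are not printed.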

Additional observations from a re-analysis of the deposited data

Results flagged for a closer look

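For all 7 tested histone genes the change against air differed between 72 h and 24 h, by the test of the difference itself (edgeR, 72 h against 24 h). The air libraries cancel in this test, but the 24 h libraries on which H1f0 was chosen stay in it. Choosing H1f0 for a low level at 24 h favours a higher level at 72 h, so its p-value is not independent of the choice. The difference in log2 fold change was 0.20 for H1f0, and that gene alone was higher at 72 h than at 24 h. It was -0.71 for H2afx, -0.51 for H2afz, -0.52 for H2afv, -0.43 for H2afy, -0.29 for H3f3a and -0.34 for H3f3b. The SE ran from 0.05 for H1f0 to 0.15 for H2afv. The libraries 24 h replicate 2 and 72 h replicate 1, with 701 to 1302 CPM of B cell markers against 1.63 to 8.51 CPM in the others, are 1 of the 3 in each of these groups. Without them the differences were 0.23 for H1f0, -0.62 for H2afx, -0.44 for H2afz, -0.37 for H2afv, -0.36 for H2afy, -0.19 for H3f3a and -0.34 for H3f3b, and those of H2afv and H3f3a were no longer called.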

How the results depend on the processing

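No log2 fold change of a member changed its sign at 72 h against air or at 72 h against 24 h in any alternative, and H1f0 stayed between -0.37 and -0.33 at 72 h against air and between 0.19 and 0.23 at 72 h against 24 h in all 15 alternatives. At 24 h against air H2afv ran from -0.12 to 0.19 and H3f3b from -0.01 to 0.04. Calls moved more than sizes. At 72 h against air 2 members were called, against 1 with no filter, 5 in DESeq2, 4 without the 2 libraries with lymphocyte markers, and 0 to 4 with a library left out. At 72 h against 24 h 7 were called, against 4 with no filter, 2 without those 2 and the air library lacking Xist, and 1 to 7 with a library left out.

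Over all genes, 1 was called at 24 h against air, against 0 with no filter, 618 in DESeq2, 24 without the 2 libraries with lymphocyte markers and 0 to 2 with a library left out, and 2314 had an unadjusted p under 0.05. At 72 h against air the count was 860, against 506 with DESeq2 size factors, 270 with no filter, 1936 in DESeq2, 430 without the 3 libraries named above, and 31 (without air replicate 3, and without 72 h replicate 2) to 1617 (without 24 h replicate 2) with a library left out. At 72 h against 24 h it was 2855, against 1696 with no filter, 1846 without those 3 libraries, and 658 to 2776 with a library left out.

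Deviations of same-numbered libraries from their group means correlated between -0.61 and 0.48, and between -0.17 and 0.17 where an air library was involved. The 24 h and the 72 h group each hold a library with lymphocyte markers, which enters the deviations of its whole group. These values therefore cannot settle whether the replicate numbers pair the libraries. With the replicate block 0 members were called at 72 h against air and 4 at 72 h against 24 h. Over all genes 0 were then called in the block fit at 24 h against air, 35 at 72 h against air and 1474 at 72 h against 24 h. The paired exact permutation test of the pair shares with the block gave p = 0.25 to 1, where 0.25 is the smallest possible.

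The H2afz share at 72 h against 24 h differed by -0.0057 points, and by -0.472 to 0.299 points with a library left out (0.192 without 72 h replicate 1, 0.299 without 24 h replicate 1, 0.156 without 24 h replicate 3). With a library left out fewer samples enter each fit; the cause of the other shifts was not tested. Depth limits H1fx, with at most 4 counts per library.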
